A study of Mus musculus with 24 samples.

Results

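miR-26a, miR-26b, miR-101a and miR-101b are 4 of the 510 miRNAs listed in the deposited counts of small RNA from mouse mammary tissue, where they are named mir-26a, mir-26b, mir-101a and mir-101b, and they were chosen by name. Female MMTV-PyMT mice of the FVB strain, heterozygous for the polyoma middle T oncogene under the MMTV promoter, which is active in mammary epithelium, were compared with FVB females of the same age without the transgene. PyMT tissue was taken as hyperplasia at week 6, as adenoma or mammary intraepithelial neoplasia (MIN) at week 8, as early carcinoma at week 10 and as late carcinoma at week 12. Tissue of every stage is called tumor here. At each week there were 3 tumor and 3 normal libraries, each from 1 mouse, which makes 24 libraries in 8 groups. RNA came from frozen mammary tissue. The study describes its carcinoma samples as mostly tumor cells with little stroma and muscle. It describes the hyperplasia and the adenoma or MIN samples as still holding normal gland cells.

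Both families are best known as repressors of Ezh2, the catalytic subunit of the Polycomb repressive complex that places a silencing methyl mark on histones. A miRNA guides a silencing complex to messages that pair with its seed, the bases 2 to 8 counted from its 5′ end. Loss of miR-101 or miR-26a with a gain of Ezh2 has been described in several human tumors, and both are commonly regarded as tumor suppressors. The study also sequenced messenger RNA, which was not analysed here, so that no level of Ezh2 is given.

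The mature sequences are shown because they decide which messages each miRNA can recognize. They are those of RefSeq (GRCm38.p6), which had an entry for all 4 miRNAs, and the seed is in capitals.
miR-26a: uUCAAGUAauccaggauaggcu
miR-26b: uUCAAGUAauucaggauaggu
miR-101a: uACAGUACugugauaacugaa
miR-101b: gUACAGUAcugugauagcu
miR-144: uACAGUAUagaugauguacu
miR-26a and miR-26b share their seed, and no other mature mouse miRNA in the same table has it. Over the 21 bases that both have, they differ at 2 positions, C11U and C21U, written as the base of miR-26a, the position from its 5′ end and the base of miR-26b. miR-101b starts 1 base further upstream than miR-101a, which moves its seed by 1 base. With that base left out, the 2 miRNAs differ at 1 of 18 positions, A16G, where the base of miR-101a comes first and positions are counted on miR-101a. miR-144, a miRNA of red blood cells, has the same bases 2 to 7 as miR-101a and differs from position 8 on.

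The seed matches of these miRNAs in the 3′ untranslated region (UTR) of Ezh2 were looked up in the mm9 annotation, on the strand of the message. The region is 267 bases long in the transcript Ezh2-001. It holds TACTTGA, the match of both miR-26 seeds, 1 time, and GTACTGT, the match of miR-101a, 2 times. TACTGTA, the match of miR-101b, occurs 1 time and overlaps the second site of miR-101a. These sites are shown, with the seed match in capitals, since they are the sequence basis for calling the miRNAs regulators of Ezh2.
miR-26 site, chr6:47480285-47480306, minus strand: atttgaataaagaaTACTTGAa
first miR-101a site, chr6:47480474-47480495, minus strand: ttcaggaaccttgaGTACTGTg
second miR-101a site, chr6:47480419-47480440, minus strand: tctgaatttgcaaaGTACTGTa
ATACTGT, the match of miR-144, is not in these 267 bases. Without its first base the match of miR-144 is TACTGT, shared with miR-101a, and this shorter match lies within both miR-101a sites. Among the first 267 bases of 14759 mouse 3′ UTRs of at least that length, TACTTGA was found in 1.74%, GTACTGT in 1.92% and TACTGTA in 2.25%. The UTRs of Ezh1 and Rnf2 held none of the 3 motifs, that of Eed held 1 match of miR-101a, and those of Suz12 and Bmi1 held 1 match of miR-26 each. A match describes the sequence and does not show that the site is used.

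The hairpins lie in 5 places of mm9. miR-26a comes from 2 loci, on chromosome 9 from 118940914 to 118941003 in an intron of Ctdspl, and on chromosome 10 from 126432586 to 126432669 in Ctdsp2, where 1 or more coding transcripts of the annotation have an exon. miR-26b lies in an intron of Ctdsp1 on chromosome 1 (74440884 to 74440968). Ctdspl, Ctdsp2 and Ctdsp1 encode related phosphatases that act on the tail of RNA polymerase II, and each hairpin has the strand of its host gene. miR-101b is in an intron of Rcl1 on chromosome 19 (29209769 to 29209865). miR-101a is in no coding gene on chromosome 4 (101019550 to 101019632), and the nearest one, Ak4, is 72250 bases away. The genome sequence of mm9 at all 5 places was identical to the RefSeq hairpin. Counts are given by miRNA name, and reads of the 2 miR-26a loci cannot be told apart in them. The mature sequences of miR-101a and miR-101b share a run of 15 bases, shorter than the 17 bases of the shortest reads counted. This keeps their reads apart only where a read stays within the mature sequence and no mismatch was allowed. The flanking bases of the hairpins were not compared, and the handling of mismatches is not described.

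The libraries held between 1032241 and 3931375 counts in all, and the median was 1690296 for tumors and 2964452 for normal glands. Each of the 4 miRNAs had at least 1854 counts in every library. Counting error is not small beside the spread between mice in every group, as for miR-101b in tumors of week 8 (2460 ± 51 CPM, SD, n = 3). All 4 passed the filter on low counts, which kept 237 miRNAs. Levels are normalized read counts in CPM, where the count of a miRNA is divided by the TMM-scaled total of its library. Epithelial marker miRNAs were summed to between 15361 and 30669 CPM in normal and between 57187 and 98550 CPM in tumor libraries, with 9 of 11 higher and 1 lower in tumor. All 5 markers of stroma and smooth muscle were lower in tumor, with sums of 70032 to 136943 CPM against 158619 to 276068 CPM in normal glands. The endothelial miR-126 was lower as well (6568 to 18254 against 20498 to 37464 CPM). Of the blood and leukocyte markers 4 of 6 tested were lower, with sums of 3873 to 15427 against 9479 to 36468 CPM, and miR-223 was listed at 0 in every library. The adipocyte-linked markers, 2 of 3 lower, had sums of 3046 to 15080 against 4662 to 25146 CPM. All 3 tested muscle markers were lower, while their sums varied from 39.9 to 18079 CPM in tumor and from 89.0 to 89345 CPM in normal libraries. These counts of higher and lower markers are calls of edgeR in the mean of the 4 weeks (adjusted p under 0.05). In that contrast 38.8% of all tested miRNAs were called higher and 46.8% lower in tumor. The part of these marker differences in the values given below was not tested. In whole tissue fewer cells of a type cannot be told apart from less miRNA per cell.

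miR-26a was the most counted of the 4, with 1.74% to 3.41% of the counts of a normal library and 1.32% to 2.40% of those of a tumor library. Its rank among the miRNAs of a library was between 5 and 14. miR-101a followed with 1.06% to 1.64% in normal and 0.798% to 1.03% in tumor libraries. miR-26b held 0.180% to 0.422% and miR-101b 0.207% to 0.348% of the counts of a library. A counted read covers most or all of a mature miRNA, so that no scaling by length was applied. As miRNAs are ligated unequally, levels of different miRNAs are compared only roughly.

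Averaged over the 4 weeks, all 4 miRNAs were under-expressed in tumor, by modest amounts. The level was 1.46-fold lower for miR-26a, 1.40-fold lower for miR-101a, 1.29-fold lower for miR-26b and 1.11-fold lower for miR-101b. The log2 fold changes were -0.55 (standard error 0.12), -0.48 (0.10), -0.37 (0.09) and -0.15 (0.06), and the adjusted p was 2.91e-04, 1.58e-04, 0.00112 and 0.0286 (edgeR, quasi-likelihood fit of all 24 libraries, Benjamini-Hochberg over 237 miRNAs). In this contrast 85.7% of the tested miRNAs passed the threshold of 0.05 38.8% as higher and 46.8% as lower in tumor, so that a call by itself is common. The median log2 fold change of all tested miRNAs was -0.15, and miR-101b stood exactly at that median, rank 119 of 237. Relative to the median, the log2 values were -0.39 for miR-26a, -0.33 for miR-101a and -0.21 for miR-26b. Counted from the lowest log2 fold change, miR-26a was at rank 92 and miR-101a at rank 102. Within the sequencing lanes, the value of miR-26a was -0.74 (standard error 0.16) on lane 1 and -0.38 (0.16) on lane 2, and the adjusted p of edgeR was 0.00179 and 0.0546. miR-101a had -0.55 and -0.46 and was past the threshold on both lanes. miR-26b had -0.49 on lane 1 and -0.28 on lane 2, where it missed the threshold (adjusted p = 0.0928 in edgeR). miR-101b had -0.18 and -0.17 and was past the threshold on neither lane (adjusted p = 0.216 and 0.132 in edgeR), and its call was also lost without normal replicate 1 (-0.13) and without normal replicate 3 (-0.17).

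**Figure D1:**
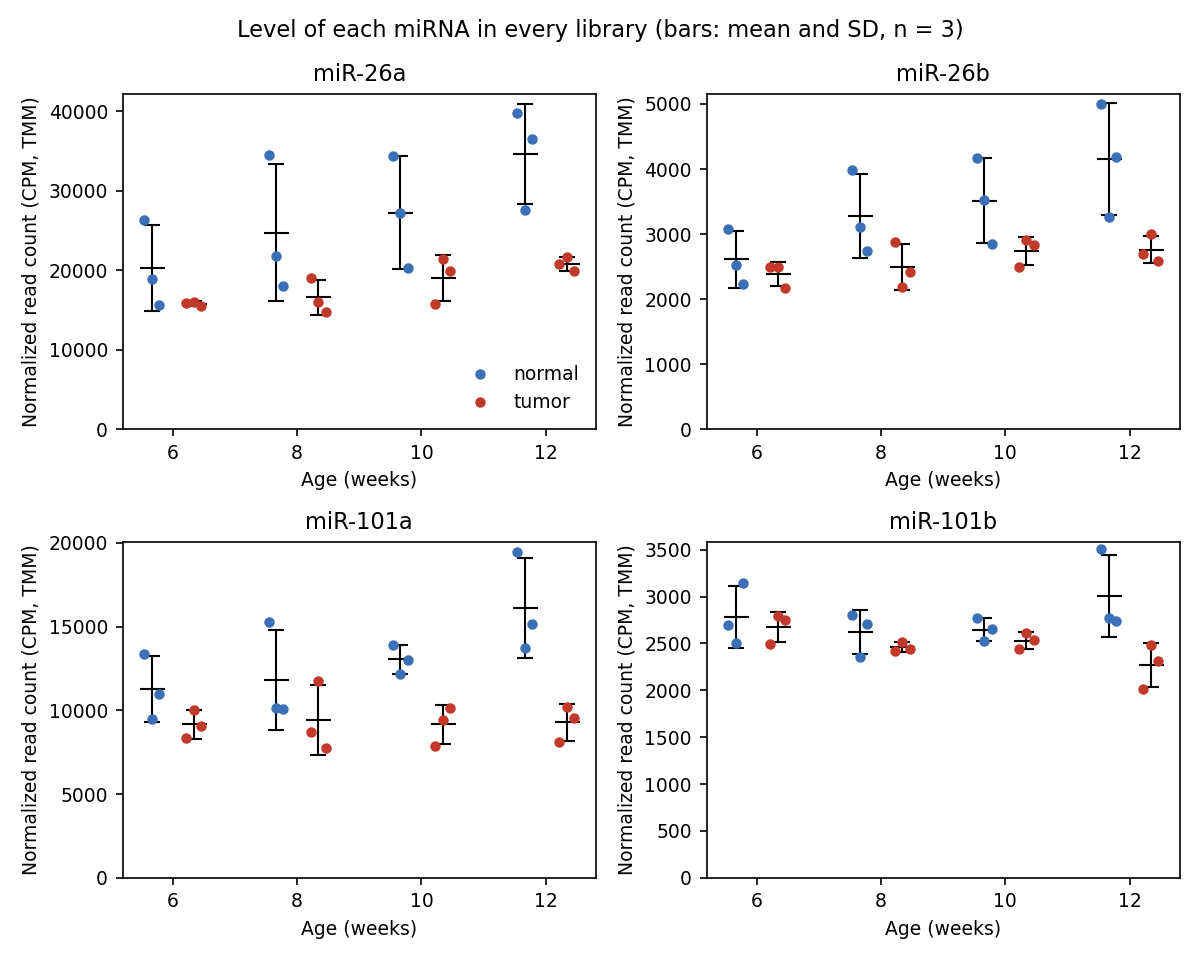
Normalized read count in CPM of miR-26a, miR-26b, miR-101a and miR-101b in each of the 24 libraries by age in weeks, with normal glands in blue and tumors in red, and black bars for the mean and SD of 3 mice. At week 12 the tumor libraries of all 4 miRNAs lie below the normal ones, as for 28.7% of the tested miRNAs. At week 6 the groups overlap for each of the 4.

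The group means of miR-26a were higher at each later week in normal glands and in tumors, and the tumors of a week were closer together than the normal glands. At week 6 the normal libraries had 26302, 18925 and 15689 CPM and the tumors 15859, 16065 and 15534 CPM. The lowest normal gland was inside the range of the tumors. At week 8 the normal libraries had 34460, 21762 and 18054 CPM against 19091, 15967 and 14745 CPM in tumors, which overlap by 1 library on each side. The values of week 10 were 34417, 27172 and 20266 CPM in normal glands and 15798, 21396 and 19948 CPM in tumors, again with a small overlap. At week 12 the 3 normal glands, with 39760, 27603 and 36542 CPM, were all above the 3 tumors, with 20810, 21711 and 19918 CPM. The same held for 28.7% of the tested miRNAs at that week. The highest normal library of each week was replicate 1, and all 4 of these were sequenced on lane 1.

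The weekly log2 fold changes of miR-26a were -0.36 (standard error 0.20), -0.63 (0.31), -0.53 (0.22) and -0.75 (0.23) at weeks 6, 8, 10 and 12. Only that of week 12, a 1.68-fold lower level, passed the threshold (edgeR, adjusted p = 0.0306, n = 3 per group). The background at that week was 50.6% of the tested miRNAs past the threshold, and 21.5% past it as lower in tumor. With the lane as a covariate the adjusted p of edgeR was 0.0509, within 0.0127 to 0.0707 over the alternatives that used all libraries. The call was lost without tumor replicate 2 or 3 or normal replicate 1 or 3, with log2 fold changes from -0.73 to -0.64. Leaving out normal replicate 3 gave a call at week 6 (-0.52) and at week 10 (-0.80), where that library was the lowest of the normal glands. At the other weeks the 95% intervals were -0.83 to 0.11, -1.35 to 0.09 and -1.06 to -0.01 on the log2 scale, and a difference of the size seen at week 12 lies inside each of them.

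miR-26b, with the same seed and a level several-fold lower, followed miR-26a closely. Its normal libraries had 3080, 2525 and 2229 CPM at week 6 and 4996, 3266 and 4192 CPM at week 12. In tumors it had 2498, 2489 and 2166 CPM at week 6 and 2695, 3003 and 2591 CPM at week 12. The groups overlapped at weeks 6, 8 and 10 and did not overlap at week 12, where 28.7% of the tested miRNAs had all tumors below all normal glands, after 34.6%, 19.8% and 31.6% at the earlier weeks. At week 8 the normal glands spanned 2743 to 3991 CPM and the tumors 2180 to 2881 CPM, and at week 10 the ranges were 2851 to 4165 and 2498 to 2907 CPM.

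No weekly difference of miR-26b passed the threshold. The log2 fold changes were -0.13, -0.44, -0.37 and -0.60, with standard errors of 0.16 to 0.25. The lowest adjusted p, at week 12, was 0.0568 in edgeR, with a 95% interval of -1.13 to -0.08 for the log2 fold change. It was 0.0106 in a single fit of all libraries, and ranged up to 0.121 over the alternatives. At week 12 leaving out normal replicate 2 gave -0.78 and a call, and at week 10 leaving out normal replicate 3 gave -0.59 and a call.

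miR-101a was the one member whose tumor and normal libraries were apart at more than 1 week. The normal libraries had 13376, 9475 and 11006 CPM at week 6, 15266, 10140 and 10078 CPM at week 8, 13900, 12192 and 13019 CPM at week 10 and 19446, 13712 and 15130 CPM at week 12. The tumor libraries had 8358, 10049 and 9076 CPM at week 6, 8724, 11746 and 7761 CPM at week 8, 7893, 9453 and 10170 CPM at week 10 and 8089, 10197 and 9550 CPM at week 12. At weeks 10 and 12 each tumor lay below each normal gland, where 31.6% and 28.7% of the tested miRNAs did the same, and at weeks 6 and 8 the groups overlapped.

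The log2 fold changes of miR-101a were -0.30 (standard error 0.17), -0.38 (0.28), -0.52 (0.13) and -0.81 (0.23) over the weeks. It was under-expressed at week 10, 1.43-fold (adjusted p = 0.0129), and at week 12, 1.75-fold (adjusted p = 0.0202, both in edgeR). At week 10, 60.3% of the tested miRNAs passed the threshold and 27.4% as lower in tumor. The call of week 10 was made in all 6 fits that left out 1 replicate. That of week 12 was lost without tumor replicate 3 (-0.84) and without normal replicate 1 (-0.65). At weeks 6 and 8, with 58.6% and 35.4% of the tested miRNAs past the threshold, no member was called, and the 95% intervals of miR-101a were -0.70 to 0.10 and -1.03 to 0.27 on the log2 scale.

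miR-101b differed least between tumor and normal gland. Its levels were 2698, 2502 and 3144 CPM in normal glands and 2496, 2790 and 2746 CPM in tumors at week 6. At week 12 they were 3507, 2767 and 2743 CPM against 2017, 2481 and 2314 CPM. The ranges overlapped at weeks 6, 8 and 10 and were apart at week 12, where 28.7% of the tested miRNAs had all tumors below all normal glands. None of its weekly log2 fold changes, -0.05, -0.13, -0.08 and -0.42, passed the threshold in edgeR (adjusted p = 0.115 at week 12, and 0.0105 to 0.323 over the alternatives). The 95% intervals of the first 3 weeks reached down to -0.40, -0.59 and -0.34.

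**Figure D2:**
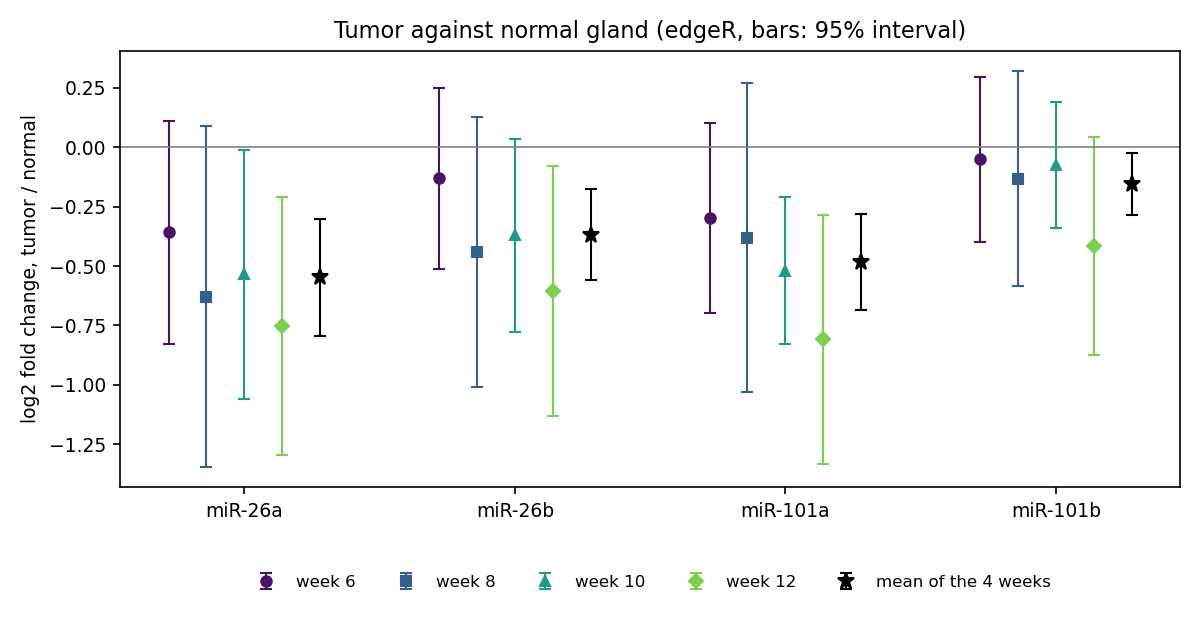
log2 fold change of tumor against normal gland for each of the 4 miRNAs at weeks 6, 8, 10 and 12 (3 against 3 libraries each) and for the mean of the 4 weeks, from edgeR, with bars for the 95% interval. All point values are below 0, and the mean of the weeks runs from -0.55 for miR-26a to -0.15 for miR-101b.

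In the order of the 8 group means, the normal glands of week 12 were highest for all 4 miRNAs. For miR-26a and miR-26b the normal glands of weeks 12, 10 and 8 came first and the tumors of week 6 last. For miR-101a all 4 normal groups stood above all 4 tumor groups, with the tumor means between 9161 and 9410 CPM. For miR-101b tumor and normal groups were interleaved, and the tumors of week 12 were lowest, with 2270 ± 235 CPM (SD, n = 3). No neighbours in any of these orders were apart, since their ranges overlapped in every case. For miR-26a the spread between mice was larger in normal glands at each week. Its SD was 5439, 8604, 7076 and 6299 CPM at weeks 6, 8, 10 and 12 in normal glands, against 268, 2242, 2906 and 896 CPM in tumors.

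Age was compared within each genotype, week 12 against week 6, in the fit of all libraries. Most libraries of week 6 were on lane 1 and most of week 12 on lane 2, so that age and lane are partly mixed in this comparison. In normal glands miR-26a rose 1.71-fold, a log2 difference of 0.77 (standard error 0.24, adjusted p = 0.0239, edgeR), and miR-26b rose 1.59-fold, 0.67 on the log2 scale (0.18, adjusted p = 0.0124, edgeR). The background was 21.1% of the tested miRNAs past the threshold and 5.49% past it as higher at week 12, and miR-26a was at rank 18 and miR-26b at rank 28 from the highest. miR-101a had 0.51 (0.19, adjusted p = 0.0634, edgeR) and miR-101b 0.11 (0.13, adjusted p = 0.589, edgeR). The 2 calls depended on the scaling, since with library sizes alone the log2 values were 0.46 and 0.36 and the adjusted p of edgeR 0.150 and 0.173. The summed stroma and smooth muscle markers were also higher in normal glands at week 12 (223728 to 276068 CPM) than at week 6 (158619 to 188544 CPM). None of these markers was called by itself (adjusted p from 0.123 to 0.693, edgeR). Their log2 differences were 0.51 for miR-143, 0.25 for miR-199a, 0.21 for miR-214, 0.17 for miR-145 and 0.14 for miR-199b. The summed levels of the other marker sets overlapped between the normal glands of weeks 6 and 12. Of their single miRNAs, the epithelial miR-203 was called higher at week 12 (1.37 on the log2 scale, adjusted p = 0.0365, edgeR). No other tested marker was called in this contrast. The part of any of these markers in the rise of miR-26a and miR-26b was not tested. Of the 6 fits that left out 1 replicate, the call of miR-26a was made without normal replicate 1 and in no other, and that of miR-26b without normal replicate 1 or 2.

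No member changed between week 6 and week 12 in tumors by this test. The log2 differences were 0.40 for miR-26a (95% interval -0.10 to 0.89), 0.21 for miR-26b (-0.17 to 0.60), 0.02 for miR-101a (-0.39 to 0.42) and -0.24 for miR-101b (-0.50 to 0.03), and 7.59% of the tested miRNAs passed the threshold. The tumor-normal difference was lower at week 12 than at week 6 for each of the 4, by log2 values of -0.37, -0.46, -0.49 and -0.35 for miR-26a, miR-26b, miR-101a and miR-101b, with standard errors of 0.18 to 0.33. None of these changes passed its own test (adjusted p from 0.400 to 0.506 in edgeR), which called 0.422% of the tested miRNAs. A joint test over the 4 weeks called 0 of 237 miRNAs in edgeR, and 9 had an unadjusted p under 0.05, none of them a member (unadjusted p from 0.186 to 0.731, edgeR). A growing difference with stage is therefore not shown by these libraries.

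Ratios within a library do not depend on the scaling between libraries, and they compare the paired miRNAs directly. miR-101a had 3.50 to 5.54 times the counts of miR-101b in normal libraries, with a median of 4.93, and 3.18 to 4.67 times in tumors, with a median of 3.61. The log2 ratio was lower in tumor by -0.33 as the mean of the weekly differences, which is 1.25-fold (p = 4.25e-04, adjusted p = 8.50e-04 over the 2 ratios, exact two-sided permutation test within weeks over 160000 arrangements). The level of miR-101a was thus lowered more than that of miR-101b. The ratios of week 10 were 4.83 to 5.02 in normal glands and 3.24 to 4.01 in tumors, and those of week 12 were 4.95 to 5.54 and 4.01 to 4.13, with no overlap at either week. At weeks 6 and 8 the groups overlapped. Within lanes the mean difference was -0.41 on lane 1 and -0.25 on lane 2.

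miR-26a and miR-26b differed less from each other. Their ratio was 6.58 to 8.72 in normal libraries, median 7.83, and 6.11 to 7.72 in tumors, median 7.11. On the log2 scale it was lower in tumor by -0.16, or 1.12-fold (p = 0.00204, adjusted p = 0.00204, exact permutation test of the same kind), with -0.23 within lane 1 and -0.08 within lane 2. The weekly differences were between -0.21 and -0.14 and the groups were apart at week 12 alone. A week by itself cannot pass the threshold, since 3 against 3 libraries give an exact p of at least 0.1.

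**Figure D3:**
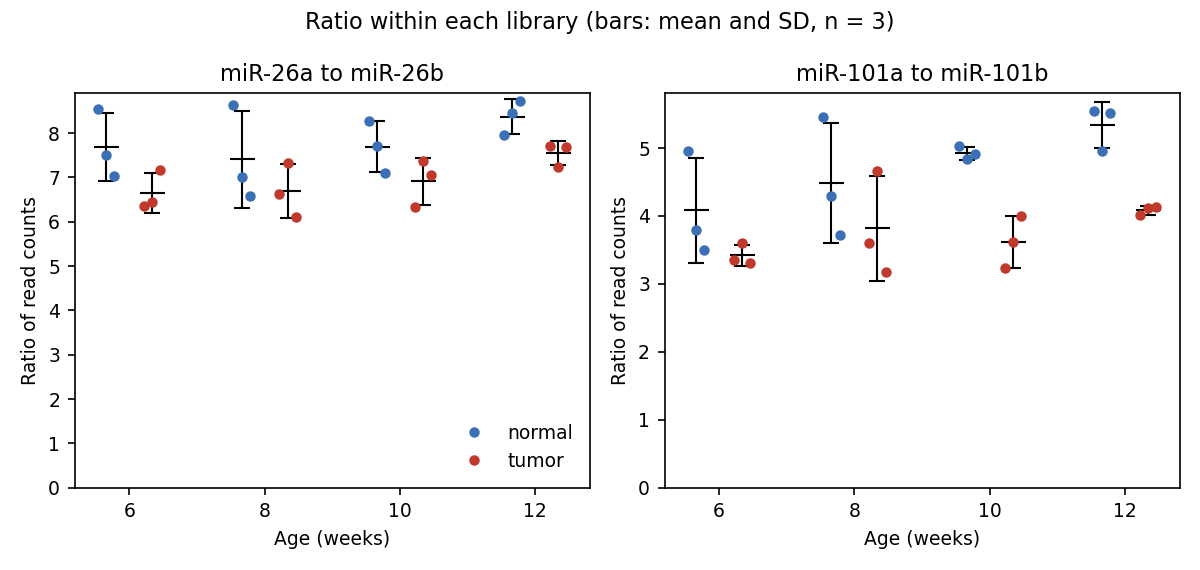
Ratio of the read counts of miR-26a to miR-26b and of miR-101a to miR-101b within each library, by age in weeks, with normal glands in blue and tumors in red, and black bars for the mean and SD of 3 mice. The ratio of miR-101a to miR-101b lies between 4.95 and 5.54 in normal glands and between 4.01 and 4.13 in tumors at week 12.

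The miRNAs most like each member across the 24 libraries were found by the root mean square difference of log2 CPM, after each miRNA was centred on its mean. The nearest to miR-26a was miR-26b at 0.15 log2 units, before miR-27a (0.17) and miR-29a (0.18), where the median distance to the 236 other tested miRNAs was 0.83. For miR-26b the nearest were miR-26a, miR-27a (0.18) and miR-23a (0.20). miR-101a was nearest to miR-27a (0.15), let-7d (0.21) and miR-26b (0.21), and its family member miR-101b came at rank 8 (0.25). miR-101b was nearest to let-7g (0.17), miR-15a (0.18) and let-7f (0.18). These distances are descriptions, and the points share the groups, the depth of the libraries and their scaling.

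Other miRNAs reported to target Ezh2 were read against all tested miRNAs. The list had 17 names, among them the let-7 family, which holds back proliferation and is a classic regulator of growth genes, and 13 of them were tested. In the mean of the 4 weeks 8 were lower and 1 was higher in tumor, and the median log2 fold change was -0.34, against -0.15 for all tested miRNAs, of which 46.8% were called lower. By week 2, 2, 5 and 3 were called lower at weeks 6, 8, 10 and 12, or 15.4%, 15.4%, 38.5% and 23.1% of the list, where the background was 29.5%, 13.5%, 27.4% and 21.5%. At 1 week or more 6 were called lower, 1 higher and 6 in neither direction. Of all tested miRNAs, 79.7% had a call at 1 week or more in either direction. The weekly shares called lower are near or below those of all tested miRNAs at 3 of the 4 weeks. Higher calls by week were 0, 0, 1 and 0, against 69, 52, 78 and 69 of the 237 tested miRNAs. In the mean of the weeks 61.5% of the list were called lower and 7.69% higher, against 46.8% and 38.8% of all tested miRNAs. The list thus had a smaller share of higher calls, and it was not tested as a set. Most of the 13 tested names belong to the let-7 family, so that these shares rest largely on 1 family. miR-214, a miRNA of fibroblasts that forms a loop with Ezh2 in muscle, fell by 0.91 on the log2 scale in the mean of the weeks (standard error 0.13, adjusted p = 2.81e-06, edgeR) and was called at all 4 weeks, and it is also among the stroma markers above. miR-144, the near-seed relative of miR-101, fell by 0.90 on the log2 scale (0.24, adjusted p = 0.00227, edgeR) and is also a blood marker. Among the members of the list called at 1 week or more, the highest were miR-25, called higher at 1 week with 0.40 in the mean of the weeks (0.07), and let-7d, called lower at 1 week with -0.37 (0.07). miR-98 was listed at 0 in every library, and miR-124, miR-137 and miR-217, with 83, 12 and 2 counts in all, did not pass the filter.

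miRNAs reported to target other Polycomb proteins, Suz12, Bmi1 and Ring1b, were called in both directions. All 9 of them were tested, and in the mean of the weeks 4 were higher and 3 lower in tumor, with a median log2 fold change of 0.27, where 38.8% of all tested miRNAs were called higher and 46.8% lower, with a median of -0.15. miR-200b and miR-200c, which keep cells epithelial, rose by 2.54 and 2.15 on the log2 scale (standard errors 0.12 and 0.14, adjusted p = 8.79e-13 and 8.43e-11, edgeR) and were called at all 4 weeks, and both are also epithelial markers above. miR-218 and miR-203 were lowest, with -0.93 (0.17) and -0.70 (0.23). miR-203, which drives differentiation of stratified epithelium, was called lower at week 12 alone (-1.87) and is the epithelial marker that was lower in tumor.

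**Figure D4:**
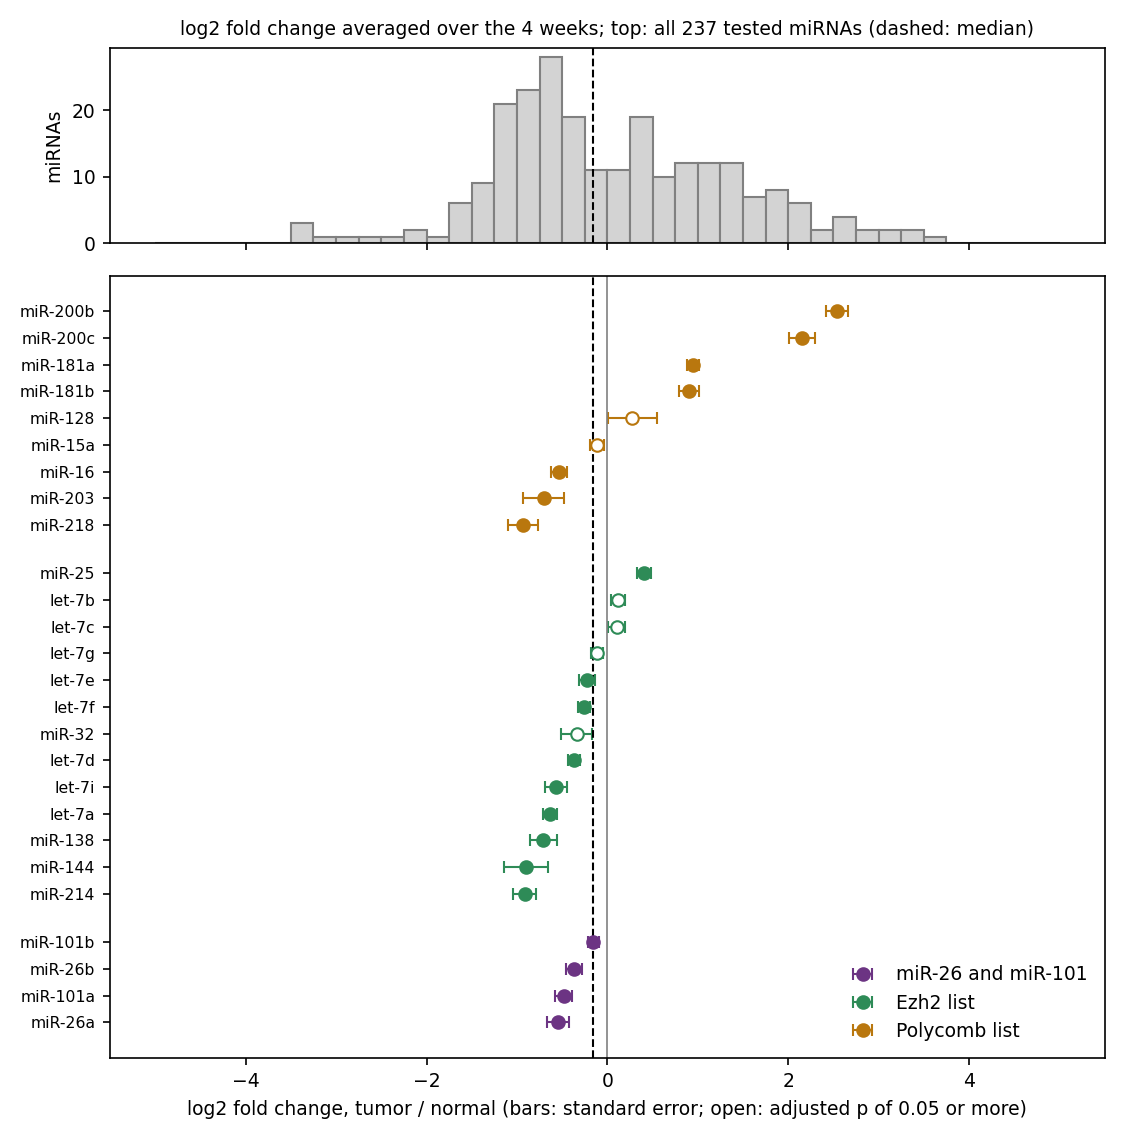
log2 fold change of tumor against normal gland averaged over the 4 weeks for miR-26 and miR-101 (purple), the 13 tested miRNAs of the Ezh2 list (green) and the 9 of the Polycomb list (orange), with standard errors, filled where the adjusted p of edgeR was under 0.05, below a histogram of all 237 tested miRNAs. The 4 miRNAs lie between -0.55 and -0.15, and the dashed line marks the median of all tested miRNAs at -0.15.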

How the data were processed

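Small RNA libraries of 12 PyMT tumors and 12 normal mammary glands, 3 mice per group, were used. The authors removed barcodes and adaptors, aligned reads of 17 to 27 bases with Bowtie, counted those overlapping more than 50% of a miRBase miRNA and deposited the raw counts per miRNA without normalization. The study names mm10, whereas the column names and the submitters' processing notes name mm9. Reads with several equal alignments and mismatches are not described in the sources used here. Groups, weeks, replicate numbers and lanes came from the labels. Replicate libraries differed by more than sampling noise (at least 66.4 in chi-square per degree of freedom over 24 pairs), and none was merged.

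Counts were tested with edgeR 4.0.16 in R 4.3.3 (filterByExpr over 8 groups, TMM, quasi-likelihood test, Benjamini-Hochberg adjustment, threshold 0.05), by week on 6 libraries and otherwise on all 24. The standard error is the log2 fold change divided by the root of F. Ratios were tested on log2 counts with 0.5 added. Python 3.11.15 and scipy 1.17.1 were used. Scripts were tested on simulated data. Alternatives were DESeq2 1.42.0 (size factors, Wald test), library sizes, 5 top miRNAs removed, the filter dropped or raised to 10 or more counts in each library, replicate block, lane covariate, a single fit and left-out replicates. The fits within lanes were chosen after seeing the data. The members, lists and rules for naming miRNAs were chosen with earlier results of these data known. Named are the 4 members, in each list the 2 highest and 2 lowest of those called at 1 week or more, the 3 miRNAs most like each member, and miR-144. In Ezh2 and other genes, the 3′ UTR of the longest coding transcript was used. Messenger RNA was not analysed here.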

Additional observations from a re-analysis of the deposited data

How the results depend on the processing

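Of 328 values recomputed under alternatives that used all libraries or 1 lane, 304 kept their direction and their side of the threshold, or stayed within 1.5 times for counts. The cause of the other changes was not tested. With library sizes in place of TMM, the median log2 fold change of all miRNAs moved by -0.14, -0.13, -0.02 and 0.18 at weeks 6, 8, 10 and 12. The rise of miR-26a and miR-26b with age in normal glands was then 0.46 and 0.36 and not called, the value of miR-101b there was -0.18, and that of miR-101a in tumors -0.0025. Relative to the median, miR-26a, miR-101a and miR-26b averaged over the weeks stayed at -0.41 to -0.38, -0.34 to -0.33 and -0.23 to -0.20 over 4 scalings. Without the 5 most counted miRNAs, miR-101b at week 6 was 0.0060 and miR-26b at week 12 was called (-0.57). With at least 10 counts in every library, miR-101b was 0.025 at week 6 and -0.10 and not called in the mean of the weeks, miR-26a in normal glands was 0.66 and not called, and miR-101a in tumors -0.10. The lane covariate ended the call of miR-26a at week 12 (-0.74) and gave one for miR-101a with age in normal glands (0.54). A single fit called miR-26a at week 8 (-0.58) and miR-26b and miR-101b at week 12 (-0.59 and -0.40). Within lanes the mean of the weeks was not called for miR-101b (-0.18 and -0.17), and on lane 2 not for miR-26a (-0.38) or miR-26b (-0.28). The number of the Ezh2 list higher in tumor at 1 week or more, 1, was 0 without a filter and 2 in the single fit.

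Replicate numbers were tried as a replicate block. The deviations of a tumor and a normal library with the same number and week had correlations from 0.03 to 0.82, over 0.1 in 10 of 12 pairs. Of 24 libraries 17 correlated best with their own number, which is a hint from the data and not the design. Libraries with the same number and week also shared a lane, and the part of the lane in these correlations was not tested. With the block miR-26a was called at week 10 (-0.51) and not at week 12 (-0.73), miR-101b was not called in the mean of the weeks (-0.15), and 135, 131, 158 and 117 miRNAs were called by week instead of 139, 84, 143 and 120. It changed no other call of a member. Age within a genotype could not be fitted with the block, since each block holds 1 week.

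With 1 replicate left out, values ranged as follows where a call or direction changed. For miR-26a the week 6 values lay between -0.52 and -0.13, those of week 10 between -0.80 and -0.34, those of week 12 between -0.92 and -0.64, and those with age in normal glands between 0.60 and 0.95. For miR-26b they were -0.24 to 0.019, -0.59 to -0.24 and -0.78 to -0.45 at weeks 6, 10 and 12, and 0.59 to 0.82 with age. miR-101a ranged from -0.94 to -0.65 at week 12, and miR-101b from -0.12 to 0.042 at week 6 and from -0.31 to -0.13 in the mean of the weeks. The lists had 0 to 1 (Ezh2, higher) and 1 to 3 (Polycomb, lower, 3 with all replicates) called. Both ratios kept their direction and call in all 6. Each of these miRNAs had at least 1854 counts in every library, and counting error is not small beside the spread between mice in every group.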
